A study of Mus musculus with 11 samples.

Results

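The nuclear genes for the subunits of the mitochondrial respiratory complexes were followed in J1 mouse embryonic stem cells mutant for DNA methyltransferases, the enzymes that methylate cytosine. The genes were chosen by symbol (the Ndufa, Ndufb, Ndufc, Ndufs, Ndufv, Sdh, Uqcr, Cox4 to Cox8 and Atp5 families), with Ndufa4l2 and symbols of pseudogenes left out. This gave 85 of the 25239 genes counted: 37 for complex I, 4 for complex II, 8 for complex III, 19 for complex IV and 17 for complex V, the ATP synthase. Poly(A)-selected RNA was sequenced at day 0 from cells of the genotypes labelled TKO_602, TKO_FL and TKO, with 1 library each, all grown on mouse embryonic fibroblast feeders in serum with LIF. The name TKO runs through all 3 genotypes, other samples of the series spell it DNMT TKO, and the series' text writes TKO_602 and TKO_FL with a plus sign after TKO. The labels do not explain FL or 602, nor say whether each line is 1 clone. With 1 library per genotype there is no replicate check and no p-value, and every difference below lies between 2 libraries.

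The respiratory complexes sit in the inner mitochondrial membrane. Complex I takes electrons from NADH and complex II from succinate, ubiquinone carries them to complex III, and cytochrome c carries them on to complex IV, which reduces oxygen. Complexes I, III and IV pump protons as electrons pass, and complex V uses the returning protons to make ATP. Most subunits are encoded in the nucleus, and a small set is encoded by the mitochondrial genome. Several complex IV subunits come in pairs, a common form and a form known from muscle, lung or testis. Mouse embryonic stem cells in serum and LIF are known to hold immature mitochondria and to rely strongly on glycolysis while still respiring.

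Promoter sequences are shown for 3 of these complex IV pairs, 2 whose tissue form passed 2-fold in TKO_602 against TKO and 1 whose tissue form did not, because cytosines followed by guanine (CpG) are the sites at which DNA methyltransferases act. Each runs 5′ to 3′ along the gene's own strand, from 250 bases before to 50 bases after the RefSeq start (GRCm38.p6), with every CpG in capitals. The tissue form of each pair comes first. Cox7a1 lies at chr7:30183921-30184220 (plus strand), Cox7a2 at chr9:79759804-79760103 (minus strand), Cox6b2 at chr7:4753045-4753344 (minus strand), Cox6b1 at chr7:30626065-30626364 (minus strand), Cox7b2 at chr5:71548156-71548455 (minus strand) and Cox7b at chrX:106015450-106015749 (plus strand).
Cox7a1: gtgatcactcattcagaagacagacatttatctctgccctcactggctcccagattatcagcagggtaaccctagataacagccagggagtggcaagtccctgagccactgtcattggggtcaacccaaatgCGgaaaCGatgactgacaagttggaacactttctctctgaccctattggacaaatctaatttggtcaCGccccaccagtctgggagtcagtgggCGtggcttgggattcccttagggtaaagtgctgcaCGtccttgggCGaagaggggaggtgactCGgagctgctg
Cox7a2: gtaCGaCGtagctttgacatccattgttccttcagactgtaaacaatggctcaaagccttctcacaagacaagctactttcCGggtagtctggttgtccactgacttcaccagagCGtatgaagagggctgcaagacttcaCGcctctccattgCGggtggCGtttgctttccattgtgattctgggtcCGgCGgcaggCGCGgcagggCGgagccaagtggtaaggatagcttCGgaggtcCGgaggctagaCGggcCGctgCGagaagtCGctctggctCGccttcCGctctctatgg
Cox6b2: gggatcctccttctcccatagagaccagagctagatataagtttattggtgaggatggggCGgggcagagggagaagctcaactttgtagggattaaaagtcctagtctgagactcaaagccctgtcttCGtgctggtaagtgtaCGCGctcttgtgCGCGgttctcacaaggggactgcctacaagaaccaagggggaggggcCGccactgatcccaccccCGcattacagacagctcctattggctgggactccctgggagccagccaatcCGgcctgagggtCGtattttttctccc
Cox6b1: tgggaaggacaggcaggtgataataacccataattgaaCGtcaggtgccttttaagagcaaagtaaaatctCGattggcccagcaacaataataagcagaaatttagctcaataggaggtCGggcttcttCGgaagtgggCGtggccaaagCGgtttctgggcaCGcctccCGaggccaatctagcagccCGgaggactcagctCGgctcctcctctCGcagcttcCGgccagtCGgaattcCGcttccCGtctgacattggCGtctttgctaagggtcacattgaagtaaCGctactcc
Cox7b2: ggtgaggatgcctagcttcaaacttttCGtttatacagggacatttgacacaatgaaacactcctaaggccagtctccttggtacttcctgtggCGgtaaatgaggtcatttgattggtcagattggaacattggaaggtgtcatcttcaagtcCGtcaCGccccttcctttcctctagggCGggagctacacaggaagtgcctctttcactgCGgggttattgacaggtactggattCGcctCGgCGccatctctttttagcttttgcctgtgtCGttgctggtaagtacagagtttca
Cox7b: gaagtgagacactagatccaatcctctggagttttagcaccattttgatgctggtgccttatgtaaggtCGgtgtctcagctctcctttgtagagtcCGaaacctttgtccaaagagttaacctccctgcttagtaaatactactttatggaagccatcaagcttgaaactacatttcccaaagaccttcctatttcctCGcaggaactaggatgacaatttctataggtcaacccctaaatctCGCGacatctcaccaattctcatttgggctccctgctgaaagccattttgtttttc
The Cox7a1 window holds 7 CpGs and the Cox7a2 window 20. The Cox6b2 window holds 10 and the Cox6b1 window 17. The third pair runs the other way, with 10 CpGs for Cox7b2 and 5 for Cox7b.

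The count table held 43158441 reads for TKO_602, 19573689 for TKO_FL and 21133660 for TKO, so TKO_602 was the deepest library. The alignment behind the TKO_602 column lay in another folder than the other 2, per the file header, and that difference cannot be told apart from the genotype. Levels are CPM, read counts divided by library size in units of 1000000 reads and scaled with TMM factors. A log2 fold is that of CPM plus 1, over genes with at least 1 CPM in one library of the pair. Intervals are exact 95% binomial intervals of the log2 ratio of reads, without the added 1, and cover counting error only. Dnmt1, the maintenance methyltransferase, had 2444 CPM in TKO_602, 3364 in TKO_FL and 159 in TKO. The 8 embryonic stem cell markers were all present and summed to 6502, 6538 and 5279 CPM in the same order. They did not move together: 5 were higher and 3 lower in TKO_602 than in TKO. Dppa5a, the largest in TKO_602, had 2441, 1632 and 1144 CPM, and Klf4 had 356, 169 and 155. Zfp42 had 589, 1200 and 892 CPM, Utf1 223, 234 and 296, and Pou5f1 1169, 1290 and 1386. The 8 primitive endoderm markers summed to 72.8 CPM in TKO_602, 44.3 in TKO_FL and 379 in TKO, and the 10 fibroblast markers to 618, 437 and 767 CPM. No defining marker of either list was at 0 in every library, and the part of these cells in the results below was not tested. In such bulk RNA, fewer cells of a type and less RNA per cell cannot be told apart.

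Of the 85 genes, 79 reached 1 CPM in at least one library and 6 did not. Together the 85 genes took 1.15% of the reads in TKO_602, 1.15% in TKO_FL and 1.14% in TKO. Ndufs5, an accessory subunit of complex I, had 0 reads in all 3 libraries. Of its 509 exonic bases, 484 (95.1%) lie within the annotated gene Ndufs5-ps, which had 33.1 CPM in TKO_602, 33.7 in TKO_FL and 31.9 in TKO. The counting left out reads that fall on 2 genes, so the 0 for Ndufs5 is no measure of its RNA. Ndufa11b and Cox8b had 0 reads as well, and Ndufb4c, Cox6a2 and Cox8c had at most 15 reads in any library. A further 6 members share 10% or more of their exonic bases with another gene, and 73 share none.

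By the median per kilobase of exon over all genes of a complex, complex V stood highest and complex I lowest. The median level was 60.9 CPM per kilobase in TKO_602, 57.6 in TKO_FL and 53.9 in TKO for complex I. Complex V had medians of 144, 192 and 182 CPM per kilobase in that order of libraries. Complex IV had 125, 130 and 128 with its 7 tissue forms counted, whose own medians were 6.41, 2.29 and 1.46. The lead of complex V rests on counting them, since the common forms of complex IV alone had a higher median than complex V. Atp5b, the catalytic beta subunit of ATP synthase, led every library, at 1263 CPM per kilobase in TKO_602, 1325 in TKO_FL and 1246 in TKO. Next came Atp5a1, the alpha subunit, with 481, 494 and 518 CPM per kilobase, and Cox7c of complex IV, with 469, 556 and 605. Those 2 neighbours changed places, with Atp5a1 the higher in TKO_602 and Cox7c the higher in TKO_FL and TKO. Among the measured complex IV tissue forms, Cox7b2 was the lowest in TKO_602, at 6.41 CPM per kilobase, and Cox4i2 the lowest in TKO_FL and TKO, at 2.29 and 1.46.

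In the TKO_FL library the respiratory genes lay close to their TKO levels. None of the 79 measured members was 2-fold higher in TKO_FL than in TKO, against 3.24% of the 13563 genes tested, and none was 2-fold lower, against 2.5%. At 1.5-fold the members again gave 0 higher and 0 lower, where 10.7% and 9.18% of all genes passed. Members are mostly well expressed. Of the 4457 genes with a mean of at least 50 CPM, a bound chosen after the data were seen, 0.85% were 2-fold higher and 0.38% lower, and 4.4% and 2.6% passed 1.5-fold, so 0 of 79 at 2-fold lies near that background. Their median log2 fold was 0.01, the middle 50% spanned 0.23 on the log2 scale, all genes tested spanned 0.54 and the genes of at least 50 CPM spanned 0.36. The ends of the range were Ndufa6, an accessory subunit of complex I, with 58.5 CPM in TKO_FL and 39.8 in TKO (log2 fold 0.54, interval 0.37 to 0.74), and Atp5g1 (log2 fold -0.39).

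In the TKO_602 library 4 members passed 2-fold against TKO, and 3 of them were tissue forms of complex IV. Cox4i2, Cox7a1 and Cox6b2 were higher, 3 of 79 members where 11.0% of the 13748 genes tested were higher. Atp5g1, a gene for the c subunit of ATP synthase, was lower, 1 of 79 where 8.06% of all genes were lower. That is 3.8% of the members higher and 1.27% lower, beside 3.72% and 6.1% of the genes with a mean of at least 50 CPM. At 1.5-fold, 6 members were higher and 5 lower, 7.6% and 6.3% of those measured, against 22.9% and 18.9% of all genes. Among the genes with a mean of at least 50 CPM, 11.7% were higher and 18.7% lower at that threshold. The members' median log2 fold was -0.04 and the middle 50% spanned 0.48. All genes tested spanned 0.97 and the genes with a mean of at least 50 CPM spanned 0.74. The sign of the members' median rests on the scaling, since it was 0.04 when CPM were scaled by library size alone.

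Set against TKO_FL, TKO_602 had 2 members that were 2-fold higher, Cox4i2 and Cox7a1, where 6.75% of the 13683 genes tested were higher. None was 2-fold lower, where 4.87% of all genes were. Among genes with a mean of at least 50 CPM these shares were 1.79% and 3.57%. At 1.5-fold, Cox6b2 joined the higher members, which made 3 (18.5% of all genes), and Atp5g1, Uqcrq and Ndufa5 were the 3 lower ones (14.4% of all genes). The median over members was -0.07, and 0.01 with library size alone. Comparisons with TKO share that library, so their folds are given side by side and not as separate support.

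**Figure D1:**
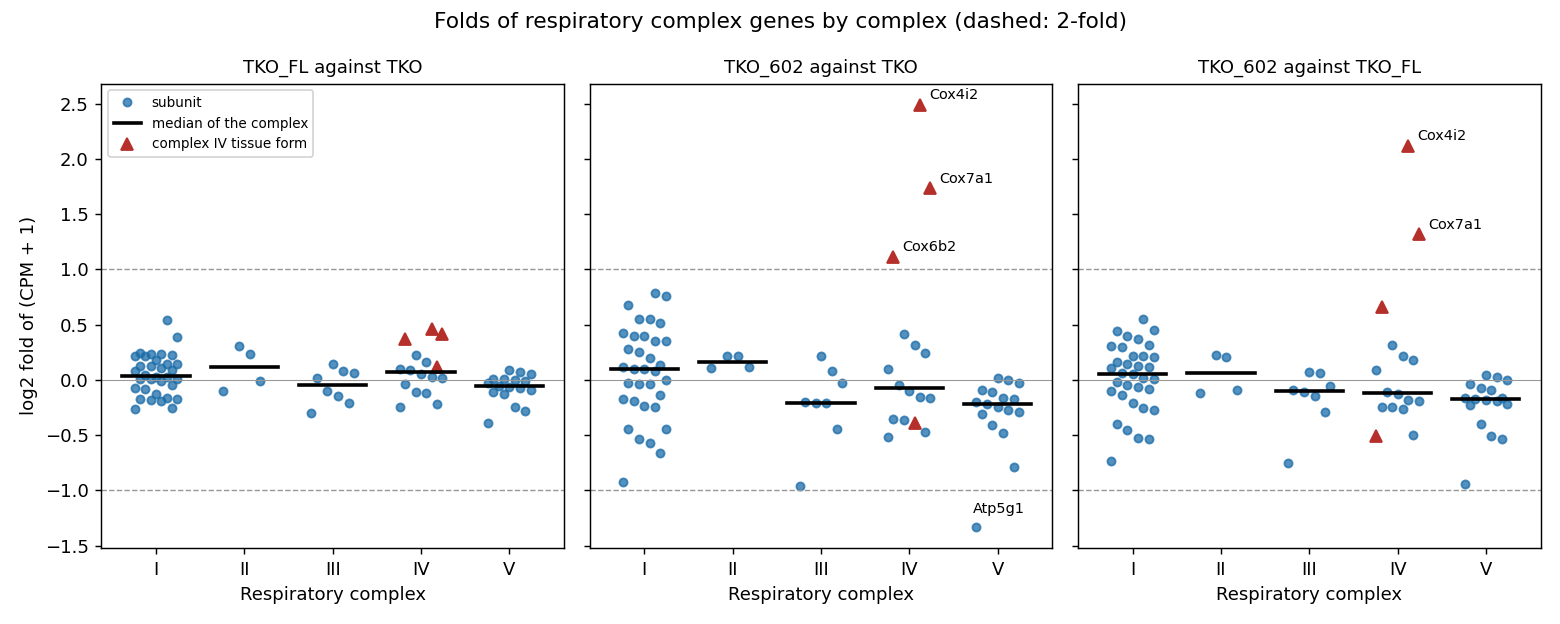
Log2 fold of CPM plus 1 for each measured gene, by respiratory complex, in the 3 comparisons; circles are subunits, triangles tissue forms of complex IV, black lines the median of a complex and dashed lines 2-fold. In TKO_602 against TKO, Cox4i2, Cox7a1 and Cox6b2 stand above the upper line and Atp5g1 below the lower one, while no gene passes either line in TKO_FL against TKO.

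Among the core subunits of complex I, nuclear ones carry the flavin and iron-sulfur clusters in the arm that reaches into the matrix. Complex I also has accessory subunits around the core. Over its 34 measured genes the median log2 fold was 0.03 for TKO_FL against TKO, 0.10 for TKO_602 against TKO and 0.06 for TKO_602 against TKO_FL. None passed 2-fold in any of these comparisons. The 7 nuclear core subunits kept within 0.13 of 0 on the log2 scale in TKO_FL against TKO. In TKO_602 against TKO, Ndufs1 was the core gene farthest from 0. Ndufs1, which carries several of the iron-sulfur clusters, had 105 CPM in TKO_602, 152 in TKO_FL and 166 in TKO (log2 fold of TKO_602 over TKO -0.66, interval -0.75 to -0.57), and 8.5% of its exonic bases are shared with Ino80dos. The other 6 core genes lay between -0.19 and 0.13.

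The accessory subunits of complex I moved both ways in TKO_602. Ndufa5, in the matrix arm, had 16.5 CPM in TKO_602, 28.2 in TKO_FL and 32.2 in TKO, a log2 fold of TKO_602 over TKO of -0.92 (interval -1.18 to -0.75). Ndufa6, also in the matrix arm, had 68.1 CPM in TKO_602, 58.5 in TKO_FL and 39.8 in TKO, a log2 fold of 0.76 (interval 0.62 to 0.94). Both TKO_602 and TKO_FL were thus above TKO for Ndufa6, and TKO_602 alone stood well below for Ndufa5. Ndufb11, in the membrane arm, had 59.2 CPM in TKO_602, 40.1 in TKO_FL and 33.8 in TKO (log2 fold of TKO_602 over TKO 0.79, interval 0.64 to 0.98), and 12.9% of its exonic bases are shared with Rbm10. Ndufa13, in the membrane arm, had 85.1, 62.0 and 52.7 CPM in that order of libraries (log2 fold 0.68, interval 0.55 to 0.83), with 29.6% of its bases shared with Tssk6. The 9 measured accessory genes of the matrix arm had a median of 0.25 and the 18 of the membrane arm 0.15 in TKO_602 against TKO. The 7 core genes had a median of -0.03, which on these sets is a description without a test.

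**Figure D2:**
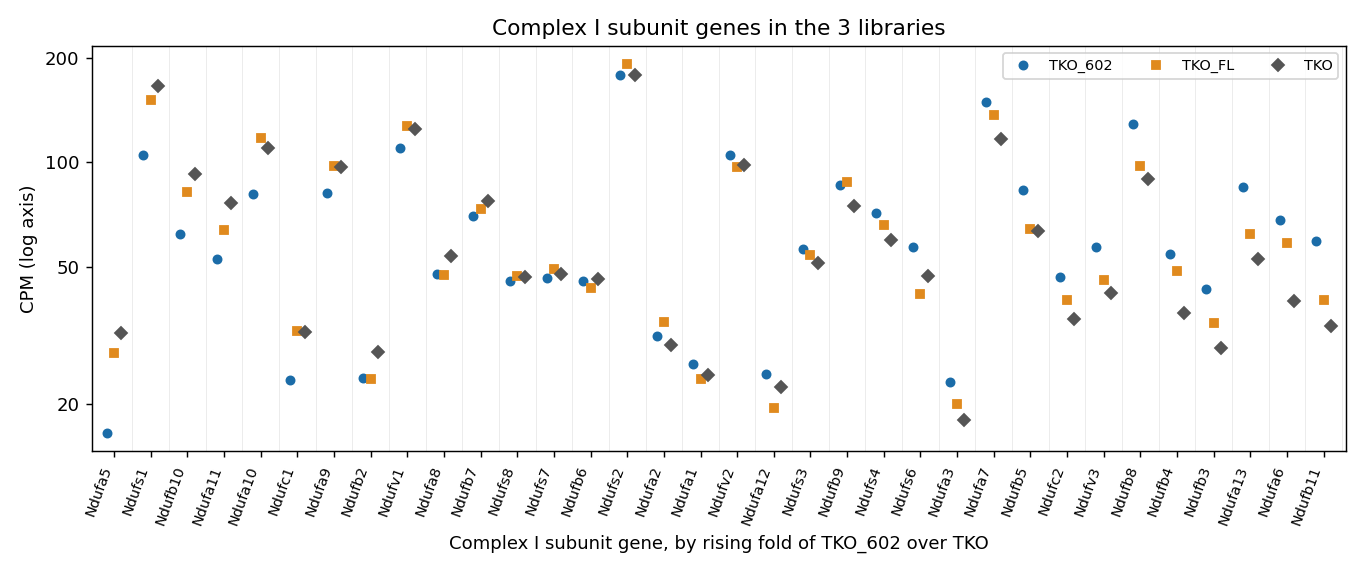
CPM on a log axis of the 34 measured complex I genes in TKO_602 (circles), TKO_FL (squares) and TKO (diamonds), ordered by the fold of TKO_602 over TKO. Ndufa5 at the left had 16.5 CPM in TKO_602 and 32.2 in TKO, Ndufb11 at the right had 59.2 in TKO_602 and 33.8 in TKO, and most genes between them differ little among the libraries.

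Complex II, succinate dehydrogenase, belongs both to the respiratory chain and to the tricarboxylic acid cycle, and all of its subunits are nuclear. Sdha, the flavoprotein that oxidises succinate, had 280 CPM in TKO_602, 304 in TKO_FL and 258 in TKO. Sdhb, the iron-sulfur subunit, had 86.9 CPM in TKO_602, 92.5 in TKO_FL and 74.8 in TKO. For both of these catalytic subunits TKO_FL was the highest library and TKO the lowest. The interval of TKO_602 over TKO_FL was -0.18 to -0.05 for Sdha. For Sdhb it was -0.21 to 0.02, which covers 0. Sdhc, a membrane anchor, had 145 CPM in TKO_602, 124 in TKO_FL and 125 in TKO. Sdhd, the other anchor, had 121, 104 and 112 CPM in the same order. The anchors were thus highest in TKO_602. The 4 log2 folds of TKO_602 over TKO lay between 0.11 and 0.21, with a median of 0.17, and the medians were 0.11 for TKO_FL against TKO and 0.06 for TKO_602 against TKO_FL.

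Complex III passes electrons from ubiquinol to cytochrome c. Its 8 genes had median log2 folds of -0.04 for TKO_FL against TKO, -0.21 for TKO_602 against TKO and -0.10 for TKO_602 against TKO_FL. Uqcrfs1, the Rieske iron-sulfur protein, had 134 CPM in TKO_602, 143 in TKO_FL and 136 in TKO. Uqcrc1 and Uqcrc2, the core proteins, had log2 folds of 0.08 and 0.21 for TKO_602 over TKO. Uqcrq, a small subunit, stood apart from them, with 58.4 CPM in TKO_602, 99.1 in TKO_FL and 114 in TKO (log2 fold of TKO_602 over TKO -0.96, interval -1.08 to -0.86). The other 4 small subunits had log2 folds between -0.44 and -0.20.

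In complex IV, cytochrome c oxidase, 3 of the 4 measured tissue forms lay outside the range of the common forms in TKO_602 against TKO, and Cox7b2 lay inside it. The 12 common forms, with Ndufa4 and the supercomplex factor Cox7a2l counted among them, had log2 folds of TKO_602 over TKO between -0.51 for Ndufa4 and 0.41 for Cox7a2l, and a median of -0.13. Ndufa4, named for complex I but assigned to complex IV, had 101 CPM in TKO_602, 121 in TKO_FL and 144 in TKO. Cox4i1, the common form of subunit IV, had 323, 353 and 362 CPM in that order of libraries. The median over all 16 measured complex IV genes was 0.07 for TKO_FL against TKO, -0.12 for TKO_602 against TKO_FL and -0.08 for TKO_602 against TKO, where it was 0.01 with library size alone.

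Of the 7 tissue forms, 4 were measured. Cox4i2, a form of subunit IV known from lung and from low oxygen (mm10 chr2:152754173-152765037, plus strand), had 10.6 CPM in TKO_602, 1.66 in TKO_FL and 1.06 in TKO. These levels rest on 475 reads in TKO_602, 32 in TKO_FL and 22 in TKO. TKO_602 was high and the other 2 libraries were low. The log2 fold of TKO_602 over TKO was 2.49, and the ratio of the CPM was 9.98, with an interval of 2.46 to 4.34 on the log2 scale. Over TKO_FL the log2 fold was 2.12 (interval 1.95 to 3.50).

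Cox7a1, the form of subunit VIIa known from heart and skeletal muscle (mm10 chr7:30184171-30186030, plus strand), had 20.1 CPM in TKO_602, 7.44 in TKO_FL and 5.31 in TKO. Its log2 fold in TKO_602 was 1.74 over TKO (interval 1.51 to 2.35) and 1.32 over TKO_FL (interval 1.06 to 1.80). The 8 muscle markers summed to 15.0 CPM in TKO_602, 17.0 in TKO_FL and 27.0 in TKO. That order rests on Ttn, the giant sarcomere protein, with 1.16, 3.38 and 15.3 CPM, and without it the other 7 summed to 13.8 CPM in TKO_602, 13.6 in TKO_FL and 11.8 in TKO. Ckm, muscle creatine kinase, had 12 reads and Myog, a muscle transcription factor, had 10 reads in TKO_602, and both had 0 in TKO_FL and TKO. Those reads are 0.268 and 0.223 CPM in TKO_602. For a floor of 3 fragments, 0 reads allow up to 0.312 CPM in TKO_FL and 0.290 in TKO, so a lower level there is not shown. The part of muscle-like RNA in the Cox7a1 difference was not tested. Cox6b2, the testis form of subunit VIb (mm10 chr7:4751792-4753094, minus strand), had 52.2 CPM in TKO_602, 32.8 in TKO_FL and 23.6 in TKO. Its log2 fold of TKO_602 over TKO was 1.11 (interval 0.95 to 1.35), and that interval reaches below 2-fold. The 5 germ cell markers summed to 191, 145 and 114 CPM in that order of libraries, and none was at 0. Dazl made up most of that sum, with 135, 88.5 and 82.1 CPM. Ddx4 (23.7, 24.4 and 16.6 CPM) and Mael (14.9, 21.4 and 11.6) were highest in TKO_FL. Sycp3 (15.4, 9.15 and 2.03 CPM) and Tex101 (2.14, 1.82 and 1.79) were highest in TKO_602. The part of germ cell RNA in the Cox6b2 difference was not tested.

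Not every tissue form was higher. Cox7b2, the testis form of subunit VIIb, had 3.48 CPM in TKO_602, 5.36 in TKO_FL and 4.88 in TKO (log2 fold of TKO_602 over TKO -0.39, interval -1.0 to 0.07). Cox8b, the muscle form of subunit VIII, had 0 reads in each library, which allows up to 0.134 CPM in TKO_602, 0.312 in TKO_FL and 0.290 in TKO for a floor of 3 fragments. Cox6a2, the muscle form of subunit VIa, had 10 reads in TKO_602, 6 in TKO_FL and 0 in TKO, and Cox8c, the testis form of subunit VIII, had 15, 10 and 0 reads. As CPM, which takes the greater depth of TKO_602 into account, Cox6a2 had 0.223 in TKO_602 and 0.312 in TKO_FL. Cox8c had 0.335 and 0.520 CPM, and each of these values rests on at most 15 reads.

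Within a pair, the tissue form can be read as a share of the pair's level per kilobase. Cox7a1 made up 35.8% of the Cox7a1 and Cox7a2 total in TKO_602 (interval 33.4 to 38.2), 18.0% in TKO_FL (14.6 to 22.0) and 14.9% in TKO (11.5 to 18.7). Cox6b2 made up 26.8% of its pair in TKO_602 (25.5 to 28.2), 22.3% in TKO_FL (20.1 to 24.6) and 15.0% in TKO (13.3 to 16.9). Cox4i2 stayed a small share, 3.34% in TKO_602 (2.94 to 3.79), 0.493% in TKO_FL (0.282 to 0.799) and 0.307% in TKO (0.153 to 0.549). The common form remained the larger part of each of these pairs in all 3 libraries. Cox7b2 made up 5.28%, 7.04% and 6.54% of its pair in the order TKO_602, TKO_FL and TKO, with overlapping intervals.

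**Figure D3:**
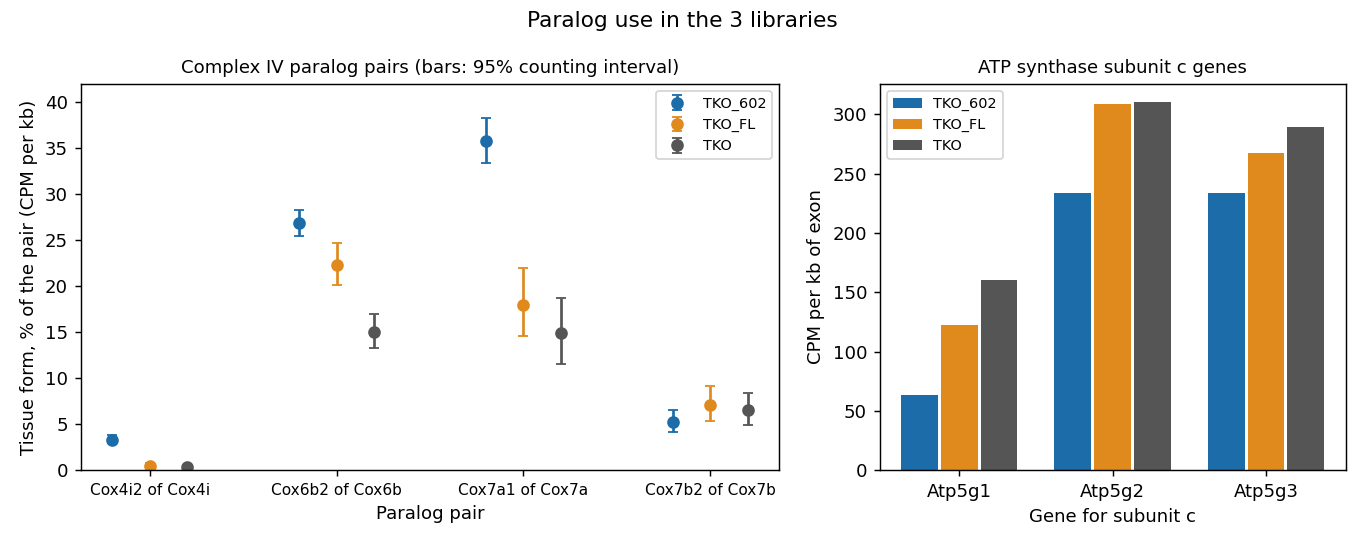
Left, share of the tissue form in 4 complex IV pairs, in percent of CPM per kilobase, with 95% counting intervals; right, CPM per kilobase of the 3 subunit c genes of ATP synthase; TKO_602, TKO_FL and TKO from left to right. Cox7a1 reaches 35.8% of its pair in TKO_602 against 14.9% in TKO, and Atp5g1 is the lowest of the subunit c genes in every library.

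Most complex V folds lay below 0. Of its 17 genes, 2 had a log2 fold of TKO_602 over TKO above 0, Atp5b with 0.02 and Atp5k with 0.00, and 15 lay below. Among all genes tested 6599 of 13748 lay below 0, and among genes with a mean of at least 50 CPM 2484 of 4457 did. The complex V median was -0.22, against 0.03 for all genes tested and -0.08 for genes with a mean of at least 50 CPM. The complex V median was -0.05 for TKO_FL against TKO and -0.17 for TKO_602 against TKO_FL. The sign of the complex V medians was the same with TMM factors, library size alone and DESeq2 size factors. The F1 head, which carries the catalytic sites, lay near 0: its 5 genes had a median of -0.09 in TKO_602 against TKO. The 4 genes of the peripheral stalk had -0.20, and the 3 genes for the c subunit had -0.41.

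Subunit c forms the rotor ring in the membrane, and 3 nuclear genes encode the same mature protein. Atp5g1 (mm10 chr11:96072793-96075694, minus strand) had 54.8 CPM in TKO_602, 105.9 in TKO_FL and 139 in TKO. Its log2 fold was -1.33 for TKO_602 over TKO (interval -1.46 to -1.24), -0.94 for TKO_602 over TKO_FL and -0.39 for TKO_FL over TKO (interval -0.51 to -0.28). The 3 libraries thus stood well apart, with TKO_602 lowest. Atp5g2 had 151 CPM in TKO_602, 200 in TKO_FL and 201 in TKO, and Atp5g3 had 169, 194 and 209 CPM. Per kilobase, Atp5g1 made up 11.9% of the 3 genes in TKO_602, 17.5% in TKO_FL and 21.1% in TKO. Atp5l, subunit g in the membrane part, was the other complex V gene past 1.5-fold, with 53.6 CPM in TKO_602, 76.6 in TKO_FL and 93.2 in TKO (log2 fold of TKO_602 over TKO -0.79, interval -0.92 to -0.67).

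The members are short genes, with a median exonic length of 727 bases against 3099 for all genes tested. Among the 489 genes of 300 to 1000 bases with a mean of at least 10 CPM, the median log2 fold was -0.05 for TKO_FL against TKO, -0.11 for TKO_602 against TKO and -0.06 for TKO_602 against TKO_FL. The 49 members in that range had medians of -0.00, -0.16 and -0.09.

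A RefSeq promoter was found for 68 of the 85 members. Their windows of 300 bases held a median of 19 CpGs, against 7 over 27018 promoters with 1 per gene. The 4 tissue forms with a window, Cox7a1, Cox6b2, Cox7b2 and Cox8b, held 2 to 10 CpGs, and the other 64 held 5 to 43. Across the 66 members with both values, the number of CpGs had a Spearman correlation of 0.04 with the log2 fold of TKO_602 over TKO and of 0.07 with that of TKO_FL over TKO. Without the tissue forms, over 63 members, these were 0.12 and 0.20. These are descriptions over genes that share libraries and base composition.

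Windows were searched on both strands for the letters of 4 motifs known from respiratory genes, none of which contains another. The NRF1 motif, GCGCA and GCGC with any base between them, was in 16 of the 68 windows (23.5%), against 4.8% of all promoters. The ETS motif CCGGAAG was also in 16 (23.5%), against 9.1%. The YY1 motif ATGGCGG was in 8 (11.8%), against 4.2%, and 7 of those 8 belonged to complex I. The ERR motif AAGGTCA was in 8 (11.8%), against 4.7%. None of the 4 motifs was in the windows of Cox7a1, Cox6b2, Cox7b2 or Cox8b. Atp5g1 held none of the 4 motifs, Atp5g2 and Atp5g3 each held the NRF1 motif, and Atp5l held the ETS and ERR motifs. Ndufa5 and Ndufa6, which moved in opposite directions in TKO_602, both held the NRF1 motif. The NRF1, ETS and YY1 letters contain a CpG and the ERR letters do not. Member windows held a median of 19 CpGs against 7 over all promoters, which were not matched for it. The part of CpG content in these shares was not tested. A match or its lack describes only these letters in these windows.

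Other mitochondrial genes were read from lists for comparison. Cycs, which encodes cytochrome c, the carrier between complexes III and IV, had 61.2 CPM in TKO_602, 110 in TKO_FL and 139 in TKO (log2 fold of TKO_602 over TKO -1.17). Cyc1, the cytochrome c1 of complex III, had a log2 fold of -0.20, and Ndufab1, a complex I subunit and acyl carrier, of -0.58. All 3 lay below 0 in each comparison. The 78 mitochondrial ribosomal protein genes, whose products translate the mitochondrially encoded subunits, had medians of -0.13 for TKO_FL against TKO, -0.44 for TKO_602 against TKO and -0.30 for TKO_602 against TKO_FL. In TKO_602 against TKO, 0 of these 78 genes were 2-fold higher and 6 (7.69%) were 2-fold lower, against 11.0% and 8.06% of all genes. Mrpl20 was lowest, at 20.9 CPM in TKO_602, 49.5 in TKO_FL and 84.5 in TKO. The 82 measured cytosolic ribosomal protein genes had a median of 0.16 in that comparison.

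Assembly factors and other lists are given beside the 11.0% of all genes that were 2-fold higher and the 8.06% that were 2-fold lower in TKO_602 against TKO. Of the 18 measured assembly factors of complex IV, 0 were 2-fold higher and 1 was 2-fold lower in TKO_602 against TKO: Lrpprc, which stabilises mitochondrial messenger RNAs, had 102 CPM in TKO_602, 285 in TKO_FL and 248 in TKO (log2 fold -1.27). Of the 16 factors of complex I, 2 were higher and 0 lower, Nubpl with 22.1, 23.8 and 9.03 CPM in the order TKO_602, TKO_FL and TKO, and Ndufaf7 with 33.2, 20.6 and 15.2. Nubpl, an iron-sulfur protein, was also the only one of the 16 that was 2-fold higher in TKO_FL against TKO (log2 fold 1.30), and Tmem186 the only one 2-fold lower (-1.06). Each is 6.25% of the 16, beside 3.24% of all genes higher and 2.5% lower in TKO_FL against TKO. Of the 6 factors of complex III, Uqcc3 alone passed 2-fold in TKO_602 against TKO (log2 fold -1.16, interval -1.50 to -0.98), and none of the 4 factors of complex II or the 5 listed for complex V did. Of 12 ubiquinone synthesis genes, 2 were higher in TKO_602 against TKO, Coq8a (log2 fold 1.94) and Coq10a (1.71), and 2 lower, Pdss1 (-1.80) and Coq4 (-1.19). The genes past 2-fold made 16.7% of the ubiquinone list in each direction, 12.5% of the complex I factors higher and 5.56% of the complex IV factors lower, and each share rests on 1 or 2 genes. Of the 14 tricarboxylic acid cycle genes none passed 2-fold in any comparison. Among 15 measured regulators of mitochondrial biogenesis none passed 2-fold against TKO, and Nrf1, the factor whose motif was searched above, had 47.8 CPM in TKO_602, 72.7 in TKO_FL and 79.3 in TKO (log2 fold of TKO_602 over TKO -0.72). Of the mitochondrially encoded subunits, 0 of 13 listed genes were in the table, so the other genetic source of the complexes was not analysed here.

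**Figure D4:**
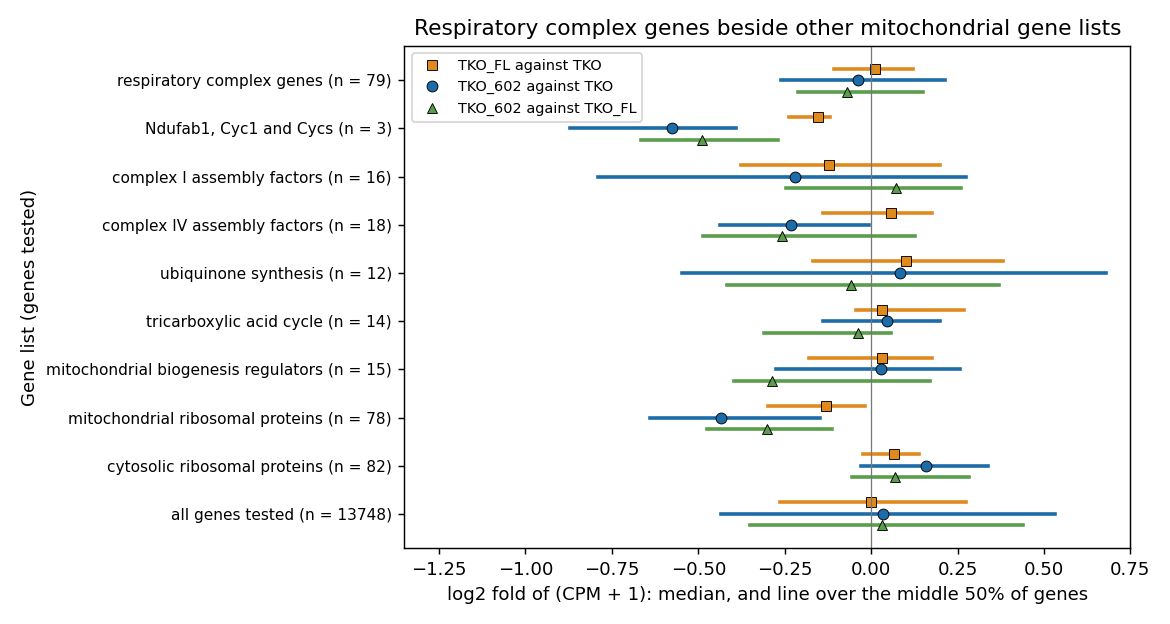
Median log2 fold (symbols) and the middle 50% of genes (lines) for the respiratory complex genes and other gene lists in the 3 comparisons; n counts the genes tested in TKO_602 against TKO. The respiratory complex genes lie near 0 in all 3 comparisons, while the mitochondrial ribosomal protein genes have medians of -0.13, -0.44 and -0.30.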

How the data were processed

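RNA from 3 libraries was analysed, grouped by the genotype in their labels; the 8 samples of immunoprecipitated DNA and the repeat table were not used. Gene counts were deposited by the authors and, per the file headers, made with featureCounts 2.0.6 in paired mode on the mm10 RefSeq gene annotation, unstranded and without a multi-mapping option, so each mate counts as a read. Sense and antisense reads of overlapping genes cannot be separated, and reads shared by near-identical copies or overlapping genes are left out. The submitters' processing notes also name Trim Galore, HISAT2 and SAMtools. The authors also deposited a gene signal table, named TPM, with columns for TKO_FL and TKO that sum to 10000000. They were divided by 10 and used as an alternative. Each table has 11 further columns of per-sample values that match none of these samples and were not used.

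Reads were scaled to CPM with TMM factors from edgeR 4.0.16 in R 4.3.3 (1.04 for TKO_602, 0.983 for TKO_FL and 0.980 for TKO). Log2 folds use a pseudocount of 1 CPM over genes with at least 1 CPM in one library of the pair, with a threshold of 2-fold and a second of 1.5-fold. Exact 95% binomial intervals were computed from reads divided by 2 in Python 3.11.15 with scipy 1.17.1, and a value of 0 was bounded by 3 fragments (6 reads). Reads from PCR are not independent molecules, so intervals and floors cover counting error only. The fold step was tested on simulated counts. The respiratory genes and the other lists were chosen with earlier results of these data known. Values in all libraries were to be printed for the members with the 4 highest and 4 lowest folds of each comparison at 5 CPM or more, members past 2-fold, complex II and paralog sets, and up to 3 genes of each other list. Some of these are given only in ranges, and genes outside that rule were chosen after their values were seen. Alternatives were library size alone, DESeq2 1.42.0 size factors, pseudocounts of 0.1 and 5, no filter, a filter of 5 CPM, the 1.5-fold threshold and the deposited TPM values. Promoters are those of RefSeq on GRCm38.p6.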

Additional observations from a re-analysis of the deposited data

How the results depend on the processing

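Of 711 values recomputed under the alternatives, 688 stayed within 1.5 times of a count or within the spread allowed for a value, and 23 moved. The spread allowed for a median was the median, over its genes, of the counting interval's width to either side, and all 132 medians of members and complexes moved by less than that. With library size alone 3 of them changed sign, the members' medians to 0.04 in TKO_602 against TKO and to 0.01 in TKO_602 against TKO_FL, and the complex IV median to 0.01 in TKO_602 against TKO. With deposited TPM, 3 members were 2-fold higher in TKO_FL against TKO (Ndufb4c, Cox6a2 and Cox8c, each with at most 12 reads in either library), where CPM gave 0. At 1.5-fold, TKO_602 had 6 members higher and 5 lower than TKO, and 3 lower than TKO_FL. Over the whole table, genes at least 2-fold apart numbered 779 in TKO_FL against TKO, and 1474 with a pseudocount of 0.1, 175 with a pseudocount of 5 and 2700 at 1.5-fold. TKO_602 against TKO gave 2614, and 1212 with a pseudocount of 5 and 5746 at 1.5-fold. TKO_602 against TKO_FL gave 1591, and 618 and 4513 under the same alternatives. Of 488 folds of named members, 12 moved, 9 with library size alone and 3 with a pseudocount of 5, which lowered Cox4i2 to 1.36 and Cox7a1 to 1.28 in TKO_602 against TKO. Leaving out members that share 10% or more of their exonic bases with another gene was an alternative chosen after seeing the data. It could not change a count of members past 2-fold, because Cox4i2, Cox7a1, Cox6b2 and Atp5g1 share no exonic bases. Ndufb11 and Ndufa13, which were higher at 1.5-fold in TKO_602 against TKO, are among the members left out. No paired analysis was possible because each genotype has 1 library. Leaving out a replicate was not possible for the same reason. Depth limits the values that rest on few reads, such as Cox4i2 with 22 reads in TKO.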
